A study of Homo sapiens with 30 samples.

Results

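In VCaP, a prostate cancer cell line from a vertebral metastasis that carries an amplified androgen receptor gene and a TMPRSS2-ERG fusion, 1068 regions had an ATAC-seq peak in all 3 vehicle libraries and none in any library at 10 nM R1881. ATAC-seq measures open chromatin by the insertion of sequencing adapters with the Tn5 transposase. The regions were taken from the peak list of vehicle replicate 4 on chromosomes 1 to 22 and X. A region was kept when it belonged to the 100000 entries of highest −log10 p, overlapped by at least 1 bp an entry of that rank in both other vehicle libraries, and overlapped no entry of any rank in the 3 lists at 10 nM. They are 1068 of 45590 peak spans shared by the vehicle libraries (2.34%), and of 79912 distinct spans in the base list. The same rule turned round found 5434 regions gained at 10 nM. The vehicle lists of replicates 1, 2 and 4 had 105034, 117798 and 132806 entries, and those at 10 nM had 135711, 146955 and 132826. The 2 counts were not matched for list length or depth, so gains and losses cannot be compared by them. The regions were chosen by their entries in the vehicle and 10 nM lists of VCaP, so the values in those libraries are given as a description, with no test. The other 9 VCaP libraries and the 15 libraries of LNCaP, a line from a lymph node metastasis with a mutated androgen receptor, did not enter the choice.

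The androgen receptor is a transcription factor that binds DNA once it holds a hormone such as testosterone. It acts largely at enhancers, which lie far from gene starts and open and close with the factors bound there, together with FOXA1, HOXB13 and other factors of the prostate lineage. Ligand opens many such sites, and other sites lose accessibility or factor binding under androgen. R1881 is a synthetic androgen that cells break down slowly.

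The 30 libraries formed 10 groups of 3. Cells of both lines spent 48 hours in medium whose serum (8%) had been stripped of steroids with charcoal, and were then given vehicle or R1881 for 24 hours. VCaP received vehicle, 0.01, 0.03, 0.06 or 10 nM (replicates 1, 2 and 4), and LNCaP received vehicle, 0.03, 0.06, 0.1 or 10 nM (replicates 3, 4 and 5). The vehicle groups are therefore androgen-deprived cells, and no group was kept in full serum. Both are established lines grown from 1 tumour each, and the labels do not say whether replicates were separate cultures, so p-values measure the spread between these libraries only.

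A promoter window in RefSeq, from 250 bases before to 50 bases after a transcription start, was overlapped by 10 of the lost regions. RefSeq lists 9 of these genes as long non-coding RNAs and 1, LRRC31, as protein-coding. Sequence was given only for promoters, so these 10 are the lost regions that can be shown as DNA. The following 5 are the 250 bases before the start, 5′ to 3′ on the gene's strand, RefSeq on GRCh38.p14. They are shown because each lies wholly inside a lost region, and the capitals mark every match to the motifs searched, on either strand. None of the marked matches overlaps another.
LRRC31, chr3:169869936-169870185, minus strand: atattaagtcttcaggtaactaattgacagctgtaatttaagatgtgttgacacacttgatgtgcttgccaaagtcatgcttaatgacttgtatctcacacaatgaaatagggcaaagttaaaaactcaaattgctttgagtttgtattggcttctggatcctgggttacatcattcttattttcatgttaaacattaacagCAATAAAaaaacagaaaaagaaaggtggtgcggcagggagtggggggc
LOC107984897, chr16:78051043-78051292, plus strand: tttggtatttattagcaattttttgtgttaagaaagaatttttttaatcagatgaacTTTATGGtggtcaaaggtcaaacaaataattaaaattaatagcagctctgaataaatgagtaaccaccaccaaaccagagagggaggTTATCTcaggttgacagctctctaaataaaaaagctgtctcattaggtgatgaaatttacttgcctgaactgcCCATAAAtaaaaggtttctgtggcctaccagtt
LOC124908058, chr2:104406252-104406501, plus strand: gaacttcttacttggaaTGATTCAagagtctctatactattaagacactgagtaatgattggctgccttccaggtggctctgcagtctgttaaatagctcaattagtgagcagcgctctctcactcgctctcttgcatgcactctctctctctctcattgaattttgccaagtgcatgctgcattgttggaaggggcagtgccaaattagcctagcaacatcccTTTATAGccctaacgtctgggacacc
LINC02292, chr14:95329334-95329583, plus strand: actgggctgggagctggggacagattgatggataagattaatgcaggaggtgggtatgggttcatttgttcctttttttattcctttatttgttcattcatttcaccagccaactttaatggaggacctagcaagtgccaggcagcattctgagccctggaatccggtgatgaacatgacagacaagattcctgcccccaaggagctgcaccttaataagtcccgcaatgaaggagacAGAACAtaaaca
LOC105371399, chr16:87765791-87766040, plus strand: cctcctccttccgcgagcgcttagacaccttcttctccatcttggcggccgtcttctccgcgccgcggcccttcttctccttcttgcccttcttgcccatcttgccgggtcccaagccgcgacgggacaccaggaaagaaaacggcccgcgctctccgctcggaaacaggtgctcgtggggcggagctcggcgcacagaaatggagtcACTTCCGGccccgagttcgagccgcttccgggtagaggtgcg

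The motif TTTATNG, letters bound by HOX factors such as HOXB13, was found on either strand in 5 of the 10 promoters. It was in 8.93% of all 35116 RefSeq promoters of that length in the set used, which leaves out chromosome 8. LRRC31, LOC124908058 and LOC107984897 hold it, the last as a pair of matches. The single androgen hexamer AGAACA was in 2 of the 10 (12.39% of all promoters), LINC02292 among them, and the full palindromic androgen response element in 0 (0.33%). The AP-1 letters TGANTCA were found in 1 of the 10, LOC124908058, and in 6.57% of all promoters. The same count of 1 held for the ETS letters CCGGAAGT (3.42% of all), for the GATA letters AGATAA, which LOC107984897 holds (9.17%), and for the E-box CACGTG (6.34%). The forkhead letters TGTTTAC matched none of the 10 (2.98% of all promoters), and neither did the variant TGTTTGC (3.23%), the GRHL letters AACCGGTT (0.12%) or the NFI palindrome (0.03%). These are matches of letters in 10 sequences and say nothing of factors bound there. The 10 promoters had a median G+C content of 49.2% and a median of 2.5 CpG dinucleotides, beside 64.8% and 20 in the 18948 promoters overlapped by the other shared vehicle spans. Over all RefSeq promoters these medians were 58.0% and 11, and the motif shares above were not matched for G+C content. LOC105371399, with 65.2% G+C and 28 CpG dinucleotides, was the exception among the 5 shown.

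Each list had 105034 to 223998 entries, and the reads behind them are not known. The background pileup, a measure of relative depth solved from the fold enrichment and −log10 p of the peaks, was 1.137, 1.089 and 2.113 in VCaP vehicle replicates 1, 2 and 4. At 10 nM it was 2.493, 2.074 and 2.431, in the low-dose VCaP libraries 1.785 to 2.742, and in LNCaP 3.061 to 5.257. Replicate 2 stood apart in every VCaP group, with median peak widths of 330 to 430 bp beside 467 to 682 bp in the other VCaP libraries, and so did LNCaP vehicle replicate 5 (416 bp, beside 491 to 654 bp). Of 8 prostate epithelial marker genes, every LNCaP library listed a peak at (within 1 kb of either end of) all 8, and VCaP libraries at 7 or 8. Of the basal markers KRT5, KRT14 and TP63, 0 to 3 had one, and TP63 had none in any VCaP library. Peaks also lay at 2 to 3 of 4 stromal, 1 to 3 of 4 immune and 3 to 4 of 4 neuroendocrine marker genes, and the part of such peaks in the results was not tested.

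The lost regions were among the weaker of the shared vehicle peaks. Values are percentile ranks by −log10 p within a library, from 0 where no peak is listed to 100 for the strongest, after the lists of a line had been cut to the length of its shortest. The mean vehicle percentile of the lost regions had a median of 42.15 (range 9.5 to 85.86), beside 73.0 for the 44522 other shared spans. Their median fold enrichment in vehicle replicate 4 was 3.85, beside 6.75. Median summit pileups were 10, 6 and 12 in vehicle replicates 1, 2 and 4, beside 25, 12 and 32. In replicate 1, 900 of the lost regions had a vehicle pileup of at least 7, the first percentile of the pileups listed at 10 nM. In replicates 2 and 4 this held for 784 (against a pileup of 6) and for 1068 (against 7). The 10 nM libraries of these replicates were 2.19, 1.9 and 1.15 times as deep as the vehicle libraries by background pileup. A region without an entry may still hold signal below the authors' threshold of −log10 p = 2, and a smaller share of cells with open chromatin cannot be told apart from less opening per cell.

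The edge of the rule was gradual. Just inside it, the 20 weakest of the lost regions had a −log10 p of 3.3 to 3.45 in vehicle replicate 4. Just outside it, 1481 shared spans had an entry in exactly 1 of the 3 libraries at 10 nM, with a median highest percentile of 8.06, and 550 of them only below the end of the shortened list. A further 3747 had an entry in exactly 2. Leaving out 1 library of the rule gave 1359 to 3388 regions: 1669 without vehicle replicate 1, 3388 without vehicle replicate 2, 2441 without vehicle replicate 4 and 1745 without replicate 1 at 10 nM. Vehicle replicate 2 therefore limited the number most.

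Most of the lost regions were far from gene starts. Within 1 kb of a transcription start lay 17 of the 1008 on chromosomes with start sites in the table used (1.69%, chromosome 8 left out), beside 28.45% of the 41974 other shared spans. The plot of lost regions by vehicle rank gives the same shares among peaks of like strength: the lost regions held the smaller share in each class of vehicle rank with at least 20 of them. In the class from 40 to 50 the shares were 0.79 and 8.49%, and in the class from 60 to 70 they were 2.0 and 14.21%. A protein-coding gene body contained 481 of the lost regions (45.04%, beside 63.51%). No protein-coding gene body lay within 100 kb of 288 (26.97%, beside 10.89%), and the median distance to a gene end was 59.01 kb, beside 15.34 kb. The peaks were also narrower, with a median width of 437 bp beside 774 bp. By chromosome, the lost share of the shared spans was lowest on the gene-dense chromosomes 19 (0.61%, 10 regions) and 22 (0.66%, 5 regions) and highest on chromosome 18 (3.47%, 35 regions).

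**Figure D1:**
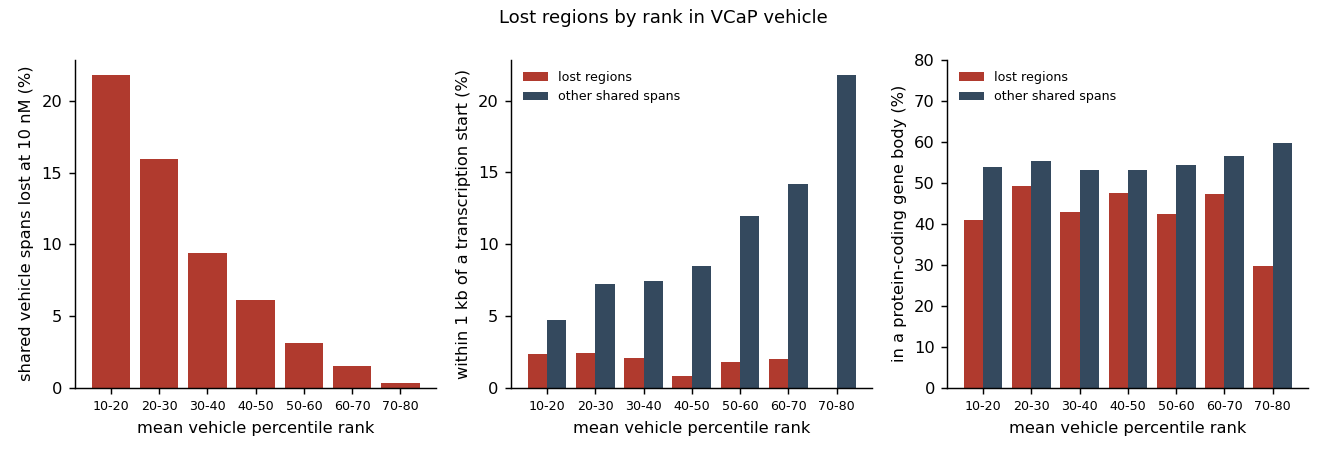
The left plot gives the share of shared VCaP vehicle spans lost at 10 nM (percent) by class of mean vehicle percentile rank, and the other plots give the share of lost regions (red) and of other shared spans (dark) within 1 kb of a transcription start and in a protein-coding gene body. Classes with at least 20 lost regions are drawn; the lost share falls from 21.78% in the class from 10 to 20 to 0.36% in the class from 70 to 80, and the lost regions have the smaller shares in both other plots.

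The lost regions had lower mean ranks at 0.06 than at 0.01 nM, doses that did not enter the choice. Their mean percentile in VCaP was 46.57, 46.38 and 36.01 with vehicle (replicates 1, 2 and 4), 30.86, 14.56 and 25.71 at 0.01 nM, 21.19, 8.81 and 12.07 at 0.03 nM, and 14.21, 8.38 and 9.53 at 0.06 nM. Replicates 1 and 4 were lower at each step, and in replicate 2 the values at 0.03 and 0.06 nM were close together. The other shared spans stayed at means of 67.15 ± 6.54 (SD, n = 3), 64.85 ± 6.32 and 66.46 ± 3.44 over the same low doses. At 0.06 nM 542 to 806 of the lost regions had an entry in replicates 4 and 1, and 445 in replicate 2. At 0.01 nM the counts were 944, 497 and 731 in replicates 1, 2 and 4. Over the 9 low-dose libraries, 84 of the lost regions (7.87%) had an entry in all and 11 in none, while 77.9% of the other shared spans had one in all 9. These shares were not matched for vehicle rank. In the class of vehicle rank from 40 to 50, libraries at 0.06 nM listed on average 59.01% of the lost regions and 91.27% of the other shared spans. At 0.01 nM these averages were 68.89 and 85.58%.

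**Figure D2:**
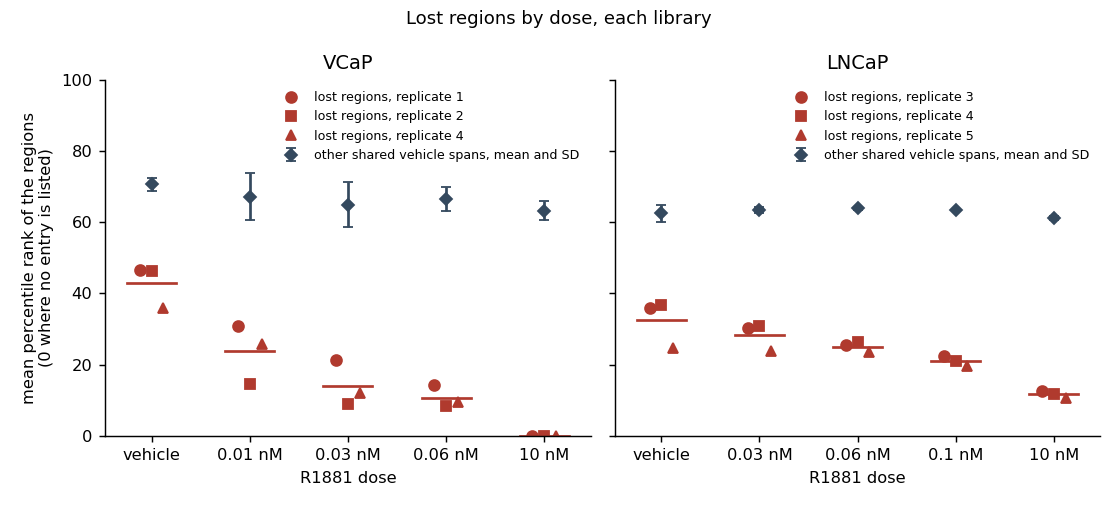
Mean percentile rank (0 to 100) of the 1068 lost regions in each library, by R1881 dose, in VCaP on the left and LNCaP on the right; symbols are replicates, red lines are group means, and dark diamonds are the mean and SD (n = 3) of the 44522 other shared vehicle spans. The lost regions go from a mean of 42.99 with vehicle to 10.71 at 0.06 nM in VCaP, where 10 nM is 0 by the rule, and from 32.44 to 11.70 in LNCaP.

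From 0.01 to 0.06 nM in VCaP, 853 of the 1068 lost regions had a lower mean percentile, 153 a higher one, and 62 the value 0 in all 6 libraries. The median difference was −12.0 points, beside 0.0 over all 79912 base spans. Within replicate numbers the counts were 816 lower and 124 higher in replicate 1, 330 and 176 in replicate 2, and 671 and 134 in replicate 4. Without the replicate 2 libraries 867 were lower and 124 higher. The 3 libraries at 0.06 nM all lay below the 3 at 0.01 nM for 160 lost regions and above them for 3 (14.98 and 0.28%), beside 6.08 and 5.07% of all base spans, while limma called 0% of all spans tested as lower and 0.0045% as higher. No single region passed: limma with Benjamini-Hochberg adjustment called 0 of 815 lost regions tested and 3 of all 66616 spans, none of these 3 a lost region. At an unadjusted p under 0.05 there were 140 of the 815 and 4269 of the 66616. The fall over the low doses is thus a count of directions across regions, and no region's own change passed after adjustment. The standard error was 12.56 points at the region near ETS1 and 20.71 at that in PFKFB4, so a change near the median could not have been called at such regions.

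SOAT1, whose enzyme stores cholesterol as esters, lay nearest to the strongest lost region (chr1:179264415-179265153, 28.64 kb outside the gene). Its percentiles were 92.08, 79.79 and 85.7 with vehicle, 78.66, 70.81 and 77.78 at 0.01 nM, 64.58, 72.19 and 31.83 at 0.03 nM, and 43.85, 46.88 and 16.98 at 0.06 nM. The groups at 0.01 and 0.06 nM did not overlap, with a difference of −39.85 points (SE 13.52), which was not called (limma, adjusted p = 0.57). It is the strongest of the 84 regions listed in all 9 low-dose libraries.

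ETS1 encodes the founding member of the ETS family of transcription factors. A lost region 70.02 kb outside it (chr11:128387876-128388747) had 86.43, 86.42 and 76.15 with vehicle, 75.16, 86.68 and 59.78 at 0.01 nM, and 28.69, 35.6 and 12.96 at 0.06 nM. The 3 values at the highest low dose were again below all at the lowest (−48.13 points, limma adjusted p = 0.364). In CXADR, an adhesion protein of cell junctions, the region (chr21:17550767-17551131) kept 89.44, 63.99 and 89.73 at 0.01 nM and had 11.22, 0 and 0 at 0.06 nM (−77.31 points, limma adjusted p = 0.224). That was the steepest step over the low doses among the 12 strongest lost regions with a gene within 100 kb, and it too missed the threshold.

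Other strong regions still had an entry in all 3 libraries at 0.06 nM. KCNJ15, which encodes an inwardly rectifying potassium channel, lay 93.25 kb from such a region (chr21:38136259-38136676). Its percentiles there were 72.6, 81.89 and 87.09 with vehicle, 82.79, 0 and 73.52 at 0.01 nM, 71.5, 73.01 and 67.73 at 0.03 nM, and 65.71, 55.22 and 52.47 at 0.06 nM. A region in PPARGC1A, a coactivator that drives mitochondrial biogenesis (chr4:23956584-23957004), had 81.12, 89.61 and 63.92 with vehicle, 48.6, 61.13 and 69.37 at 0.01 nM and 49.54, 46.88 and 40.92 at 0.06 nM. Both regions were of middle rank at the highest low dose, below their vehicle values. In PFKFB4, a regulator of glycolysis, the narrow region (chr3:48558222-48558432, 211 bp) had 97.52, 69.23 and 78.32 with vehicle, 0, 0 and 63.8 at 0.01 nM and 64.17, 74.1 and 72.6 at 0.06 nM. Its difference of 49.02 points upward was not called (limma, adjusted p = 0.73). At the other end, CEP78, a centrosomal protein gene, holds the strongest of the 11 regions listed in no low-dose library (chr9:78259758-78260107), with 39.72, 58.73 and 9.25 in vehicle.

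In LNCaP, which took no part in the choice, the lost regions also fell in rank with androgen. Their mean percentile was 35.9, 36.7 and 24.74 with vehicle (replicates 3, 4 and 5), and 12.71, 11.65 and 10.74 at 10 nM. At 0.03, 0.06 and 0.1 nM the group means were 28.31 ± 3.9, 25.05 ± 1.39 and 21.04 ± 1.47 (SD, n = 3). By mean percentile, all 3 libraries at 10 nM lay below all vehicle libraries, and each replicate number fell. The other shared spans went from 62.56 ± 2.39 with vehicle to 61.13 ± 0.47 at 10 nM. In the whole lists, 667, 688 and 511 lost regions had an entry with vehicle, and 441, 547 and 553 at 10 nM. Replicate 5 thus rose in that count. Its group means were 622.0 with vehicle, then 592.0, 624.67, 584.67 and 513.67 by rising dose. At 10 nM against vehicle, limma with Benjamini-Hochberg adjustment over all spans called 356 of the 688 lost regions tested as lower (51.7%), where 14% of all 62571 spans tested were called lower. It called 6 as higher (0.872%), where 11.6% of all spans were called higher. The median difference was −31.9 points, beside −1.06 over all spans tested.

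Over all 1068, including those without the 3 entries needed for a test, 698 had a lower mean at 10 nM than with vehicle in LNCaP, 63 a higher one, and 307 the value 0 in all 6 libraries. Without vehicle replicate 5 these counts were 688, 56 and 324. The 2 groups did not overlap for 367 lost regions in the lower direction (34.36%) and for 13 in the higher (1.22%), beside 15.46 and 12.19% of all base spans. Among spans of like strength in LNCaP, lost regions were lower more often than others: in the class with a mean LNCaP percentile of 40 to 60, 91.45% were lower at 10 nM and the groups did not overlap for 73.03%, beside 57.65% and 28.75% of the other shared spans. In the class from 80 to 100 these shares were 96.3% and 74.07% of 27 lost regions, beside 60.71% and 16.2%. The gap was smaller in the largest class, from 0 to 20, with 83.17% and 12.94% of 309 lost regions, beside 54.04% and 6.27%. The number called depended on the scale. With normal scores of the ranks, 22 of 688 were called lower and 3 higher, where 0.157 and 2.91% of all spans tested were. Among peaks with a −log10 q of at least 5, 134 of 586 were called lower and 29 higher, where 2.04 and 28.6% of all spans tested were.

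**Figure D3:**
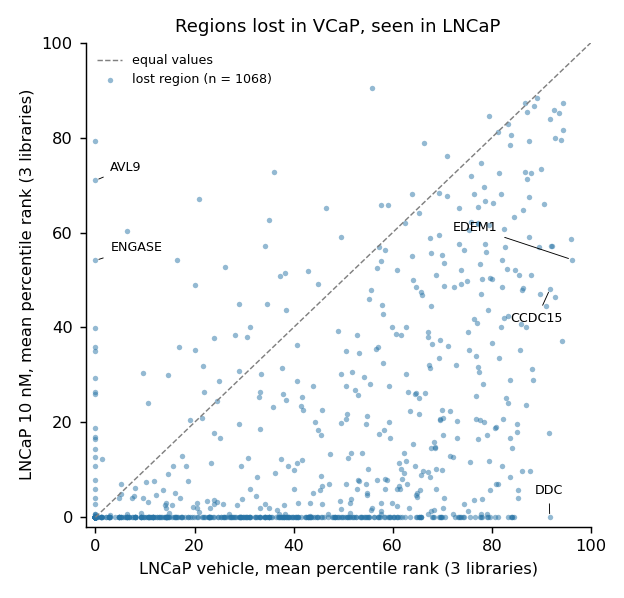
Each point is 1 of the 1068 regions lost in VCaP, with its mean percentile rank over 3 LNCaP vehicle libraries on the x axis and over 3 LNCaP libraries at 10 nM on the y axis; the dashed line marks equal values. Most points lie below the line, many of them on the axis at 0 for 10 nM, while AVL9 and ENGASE stand at 0 with vehicle and above 50 at 10 nM.

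Part of the fall in LNCaP was also called over shorter steps of dose. At 0.1 nM against the same vehicle libraries, 126 lost regions were called lower (limma, background 2.43%) and 3 higher (background 7.15%). From 0.1 to 10 nM, 107 were called lower (background 3.18%) and 0 higher (background 0.681%). With normal scores both counts of lower regions were 0 (backgrounds 0.0016 and 0%). Among peaks with a −log10 q of at least 5 they were 17 and 21 (backgrounds 0.146 and 0.3%). Single libraries moved both counts of lower regions by over 1.5 times. The first was 82 and 78 without 0.1 nM replicates 4 and 5 (backgrounds 1.34 and 1.58%). It was 83 and 73 without vehicle replicates 3 and 4 (backgrounds 1.6 and 1.3%). The second was 64 and 66 without 0.1 nM replicates 3 and 4 (backgrounds 1.83 and 1.71%), and 69 without 10 nM replicate 5 (background 2.0%). Among the 356 called at 10 nM, the median of the mean percentiles was 66.34 with vehicle, 57.39, 49.18 and 39.28 at 0.03, 0.06 and 0.1 nM, and 5.95 at 10 nM. Of these 356, 325 had a value at 0.1 nM between vehicle and 10 nM, 194 were lower at each of the steps, and 45 had no entry in any library at 10 nM.

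DDC, whose enzyme makes dopamine and serotonin from their amino acid precursors, holds the lost region with the largest fall in LNCaP (chr7:50489391-50490044, in the gene body). Its LNCaP percentiles were 91.71, 93.35 and 90.04 with vehicle, 91.07, 93.42 and 90.46 at 0.03 nM, 89.97, 88.84 and 75.12 at 0.06 nM, 77.74, 74.08 and 62.3 at 0.1 nM, and 0, 0 and 0 at 10 nM. It fell by 91.7 points (SE 4.76, limma adjusted p = 1.31e-08). In VCaP the same region was weaker, with 43.55, 46.51 and 34.06 in vehicle, and was last listed at 0.01 nM.

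VAV3 encodes a guanine nucleotide exchange factor, and a region in it (chr1:107639520-107639751) went in LNCaP from 89.47, 90.45 and 71.63 to no entry at 10 nM. It fell by 83.85 points (SE 10.95, limma adjusted p = 4.68e-05). Near LIM2, a lens membrane protein gene (chr19:51378419-51379114), the values went from 87.83, 89.79 and 74.82 to 0 in all 3 (a difference of −84.15 points). In MEIS2, a homeobox factor gene (chr15:36970481-36970838), they went from 80.25, 84.21 and 79.41 to 0 in all 3 (−81.29). The region in MEIS2 was weak in VCaP at every low dose, at 44.23 or below. The other large falls among regions with a gene within 100 kb were at CCDC91 (−84.03), ATAD2B (−81.2), KCNH5 (−79.53), which encodes a voltage-gated potassium channel, and KCNJ15 (−79.08). Of these 8 regions, DDC, VAV3, LIM2, CCDC91 and KCNJ15 were called under all 16 alternative settings. MEIS2 was not called with an overlap of at least 250 bp, and ATAD2B and KCNH5 not with normal scores.

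Some of the strongest LNCaP peaks among the lost regions fell in rank and remained listed. EDEM1, which acts in the disposal of misfolded glycoproteins, lay 45.03 kb from a region (chr3:5264992-5265587) with 97.12, 97.02 and 94.4 in LNCaP vehicle and 57.56, 56.52 and 48.79 at 10 nM. It fell by 41.89 points (SE 3.15, limma adjusted p = 3.3e-07). At SOAT1, LNCaP had 54.83, 76.07 and 52.5 with vehicle and 0 in all shortened lists at 0.1 and at 10 nM (−61.14 points, limma adjusted p = 0.000338). In the whole lists it had an entry in 11 of the 15 LNCaP libraries, some of them below the end of the shortened lists. A region 7.56 kb from CCDC15 (chr11:124945955-124946640) went from 92.55, 92.89 and 89.83 to 50.52, 52.54 and 41.27 (−43.65, limma adjusted p = 1.5e-06). In both, the vehicle and 10 nM groups were far apart. Of the 34 named regions called in LNCaP, 25 were not called with normal scores, those at SOAT1, EDEM1 and CCDC15 among them, and the calls named from here on did not hold on that scale except at AVL9, ENGASE and PFKFB4. The CEP78 region, absent from every low-dose VCaP library, was listed in all 15 LNCaP libraries and went from 84.48, 86.15 and 80.41 to 52.02, 21.48 and 13.15 (−54.8, limma adjusted p = 0.000611).

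The 6 regions called higher in LNCaP moved against the rest. Near AVL9, 69.29 kb away (chr7:32658020-32658216), LNCaP had 0 in all vehicle libraries, 57.9, 0 and 27.47 at 0.03 nM, and 71.65, 75.87 and 65.41 at 10 nM (a rise of 70.97 points, limma adjusted p = 0.000177). ENGASE, a gene for an enzyme that cuts N-glycans, lay 6.61 kb from a region (chr17:79067795-79068213) that went from 0 in all 3 to 57.55, 54.38 and 50.43 (54.12 points, adjusted p = 0.00338). In CDKL4, a kinase gene (chr2:39180058-39180672), the values went from 19.28, 0 and 0 to 53.86, 52.54 and 74.7. At PFKFB4 they went from 0 in all 3 to 80.03, 79.35 and 78.54 (79.31 points, SE 25.42, limma adjusted p = 0.033). The PFKFB4 call did not hold when any 1 of the 6 libraries was left out. AVL9 and ENGASE were called under all 16 settings, so the opposite direction in the other line held for these 2 regions, and the difference between the lines was not tested.

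**Figure D4:**
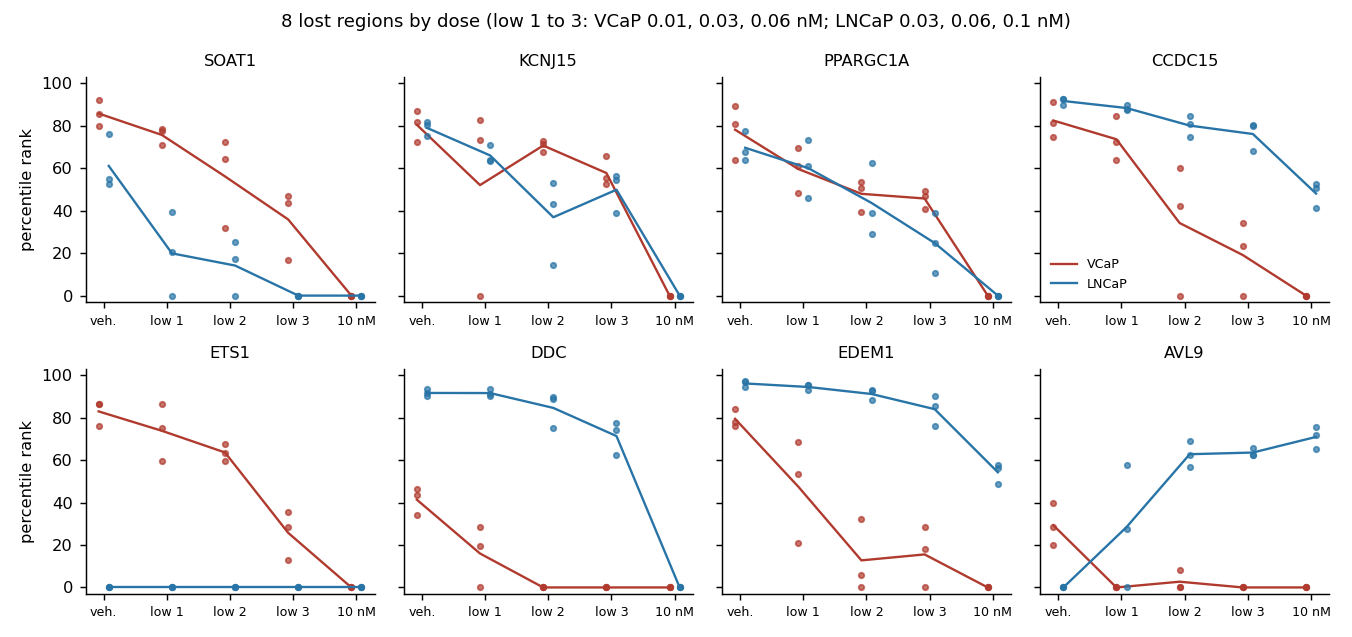
Percentile rank of 8 lost regions, named by the nearest gene, with vehicle (veh.), the 3 low doses and 10 nM in VCaP (red) and LNCaP (blue); points are libraries and lines join group means. The VCaP values at 10 nM are set by the rule for all 8 regions. In LNCaP, SOAT1, KCNJ15, PPARGC1A, CCDC15, DDC and EDEM1 are lower at 10 nM than with vehicle, and KCNJ15 and PPARGC1A also met the rule there. ETS1 has no entry in LNCaP at any dose, and AVL9 rises in LNCaP to 65.41 to 75.87.

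A part of the lost regions was absent from LNCaP altogether. No LNCaP library listed 225 of the 1068 (21.07%), beside 3.89% of the other shared spans, and all 15 listed 271 (25.37%), beside 73.34%. These shares were not matched for strength in VCaP vehicle. LNCaP vehicle libraries listed on average 58.24% of the lost regions and 84.54% of the other shared spans. In the class of VCaP vehicle rank from 40 to 50 these averages were nearer, at 58.77 and 70.4%. In the class from 60 to 70 they were 61.64 and 81.22%. The regions at ETS1 and CXADR were among the 225, and a region 0.03 kb from KIF16B, a kinesin gene (chr20:16271348-16272074, 83.01, 83.0 and 75.9 in VCaP vehicle), had an entry in 1 LNCaP library. In VCaP the 225 did not stand apart in vehicle, with a median of the mean percentiles of 41.13, beside 43.24 for the 271 listed throughout LNCaP. At 0.06 nM the medians were 5.53 and 6.93. Of the lost regions tested in LNCaP, those called lower at 10 nM (background 14%) were 143 of 234 (61.11%) among regions listed in 7 to 9 low-dose VCaP libraries, 167 of 336 (49.7%) for 4 to 6, and 46 of 118 (38.98%) for 0 to 3. These classes also differed in VCaP vehicle strength, with medians of 50.87, 41.31 and 30.35, and the difference between the classes was not tested.

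Applied to LNCaP, the same rule found 478 lost regions, and 25 of the VCaP regions overlapped one of them. That is 2.34% of the VCaP and 5.23% of the LNCaP lost regions, while 43 of the 44522 other shared VCaP spans (0.1%) overlapped one. Besides VAV3, KCNJ15 and PPARGC1A, genes chosen here after their values were seen include CORIN, a protease that activates atrial natriuretic peptide, and NR1H4, the bile acid receptor. The region in CORIN (chr4:47720680-47721182) had 72.52, 84.18 and 77.3 in VCaP vehicle and 50.12, 33.97 and 58.95 in LNCaP vehicle. Between vehicle and 10 nM, which were set by the rule in both lines, the medians over the 25 were 49.39, 32.97 and 24.58 at 0.03, 0.06 and 0.1 nM in LNCaP, and 33.48, 14.61 and 7.87 at 0.01, 0.03 and 0.06 nM in VCaP. At 0.1 nM 24 of the 25 were below their value at 0.03 nM in LNCaP, and at 0.06 nM 21 were below 0.01 nM in VCaP.

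Genes known to be repressed by androgen had 5 lost regions among the 146 shared spans nearest to them (3.42%, beside 2.34% of all shared spans), at BCHE, CDH2, DDC, MYC and PRUNE2. Of the 4 tested in LNCaP, 3 were called lower at 10 nM, where 14% of all spans tested and 51.7% of the lost regions tested were. The region at MYC, the growth-promoting transcription factor, overlapped its gene body (chr8:127742161-127743598) and had 86.33, 77.41 and 80.25 in VCaP vehicle, 77.17, 84.84 and 80.82 at 0.01 nM, and 64.92, 75.72 and 29.7 at 0.06 nM. In LNCaP it was weaker, with 29.45, 30.48 and 9.8 in vehicle, 55.99, 44.6 and 50.14 at 0.1 nM and 14.17, 1.27 and 18.71 at 10 nM. The change from vehicle to 10 nM was not called there (−11.86 points, SE 8.81, limma adjusted p = 0.37). Its LNCaP values at 0.1 nM lay above those of both vehicle and 10 nM. In CDH2, which encodes N-cadherin (chr18:27956142-27956621), VCaP vehicle had 39.72, 46.51 and 34.06, and 1 of the 3 LNCaP vehicle libraries had a value above 0 (27.47).

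Genes known to be induced by androgen had 4 lost regions of 181 (2.21%), at IQGAP2, MAF, STEAP1 and TPD52. A region in MAF, a leucine zipper factor (chr16:79294363-79294779), had 32.29, 58.73 and 28.03 with vehicle and 41.34, 32.51 and 23.23 at 0.06 nM in VCaP. A region in TPD52, a gene often overexpressed in prostate tumours (chr8:80144428-80144751), had 70.06, 38.37 and 48.34 with vehicle, 16.86 in 1 shortened list at 0.01 nM and 0 in all others. None of the lost regions near induced genes was called lower in LNCaP, of 2 tested, beside 14% of all spans tested and 51.7% of the lost regions tested. With so few regions, a difference from the repressed genes cannot be read from these counts, and none was tested. A region near STEAP1, a metalloreductase of the prostate cell surface (chr7:90084634-90085278, 69.19 kb), was one of those tested (−13.29 points, limma adjusted p = 0.398).

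Neuroendocrine and neural genes had 5 lost regions of 98 (5.1%, beside 2.34% of all shared spans), among them those at CNTNAP2, FOXA2, NCAM1 and NEUROD1. The region in CNTNAP2, a cell adhesion protein of neurons (chr7:146698893-146699780), had 42.33, 79.79 and 47.31 in VCaP vehicle, 47.71, 53.51 and 34.52 at 0.01 nM, and 0 in all 3 shortened lists at 0.06 nM. In LNCaP it went from 85.11, 83.45 and 83.83 with vehicle to 42.49, 0 and 1.42 at 10 nM, and it fell by 69.49 points (SE 8.67, limma adjusted p = 3.16e-05). Near NEUROD1, a neuronal basic helix-loop-helix factor (chr2:181688666-181689014, 8.15 kb), vehicle had 65.92, 58.73 and 19.97, and the LNCaP difference was not called (−5.47 points, limma adjusted p = 0.717). The count in this list was 1 called lower of 2 tested, beside 14% of all spans tested and 51.7% of the lost regions tested.

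Nuclear receptor genes had 3 lost regions of 125 (2.4%), at NR4A1, PGR and RARB. The region in RARB, the retinoic acid receptor beta (chr3:24860082-24860651), had 45.88, 46.51 and 47.31 in VCaP vehicle. It went in LNCaP from 62.34, 74.36 and 58.95 to 0 in all 3 (−65.22 points, SE 9.71, limma adjusted p = 0.000145). NR4A1, an orphan receptor induced as an early response gene, holds a region (chr12:52029733-52029969) with 54.3, 76.77 and 74.64 in VCaP vehicle, 0, 0 and 64.81 at 0.01 nM and 50.97, 48.13 and 48.87 at 0.06 nM. Its LNCaP entries, 64.47 and 51.03, were in 2 vehicle libraries and at no dose. PGR, the progesterone receptor, had a weak region (chr11:101048161-101048500) with 32.29, 5.22 and 28.03 in vehicle.

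FOS, a subunit of the AP-1 factor, had the single lost region among 54 shared spans near early response genes (1.85%, chr14:75240651-75241371, 37.46 kb away), and it is 1 of the 25 lost in both lines. In VCaP it went from 54.18, 71.34 and 49.39 with vehicle and 54.46, 0 and 52.45 at 0.01 nM to 11.84, 0 and 26.45 at 0.06 nM. Growth factor signalling genes had 3 of 159 (1.89%), at EGF, KIT and PDE4D. Near KIT, a receptor tyrosine kinase (chr4:54623521-54623887, 34.07 kb), LNCaP went from 42.44, 34.9 and 52.5 to 0, 0.52 and 0 (−43.11 points, limma adjusted p = 0.00503, not called with all entries as deposited). Near EGF, a growth factor (chr4:110025225-110025485, 11.46 kb), it went from 44.83, 53.57 and 14.53 to 0 in all 3 (−37.65 points, adjusted p = 0.0152), a call that did not hold without vehicle replicate 3 or 4. Luminal lineage genes had 3 of 164 (1.83%), at KRT18, NFIA and NFIB, and the KRT18 region, 17.32 kb from this luminal keratin (chr12:52970224-52970579), was called lower in LNCaP (−27.91 points, limma adjusted p = 0.0414), though in only 5 of the 16 other settings.

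No lost region was nearest to a cell cycle gene (0 of 67 shared spans), a cell cycle inhibitor (0 of 59), a WNT, NOTCH or TGF-beta gene (0 of 90), a housekeeping gene (0 of 39) or an immune marker (0 of 8). Basal markers had 1 of 17, at ITGA6, and stromal markers 1 of 11, at COL3A1, a fibrillar collagen gene whose region (chr2:189008463-189008696) had 67.51, 46.51 and 9.25 in VCaP vehicle and no entry in LNCaP. Over all shared spans 2.34% were lost, the share to set beside these counts and those of the lists above. The lists were not matched for vehicle rank, with which the lost share falls. These counts are small, and none was tested.

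The lost regions were scattered: 723 genes were named as nearest within 100 kb, and none had more than 3 of the regions. Those with 3 were ABCA13, AMPH, EPHA6, LIPG, MACROD2 and STOX2, of 8 to 31 shared spans each. AMPH encodes amphiphysin, a protein of endocytosis, EPHA6 an ephrin receptor and LIPG endothelial lipase. The strongest EPHA6 region (chr3:97736996-97737240) had 72.8, 66.49 and 62.12 in vehicle, 63.88, 20.83 and 56.15 at 0.01 nM and 26.03, 20.64 and 0 at 0.06 nM, with no entry in LNCaP. The strongest AMPH and LIPG regions were called lower in LNCaP (−39.17 and −25.87 points, both limma adjusted p = 0.00979), LIPG not with all entries as deposited.

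Of the 10 regions at promoters, all tested in LNCaP, 5 were called lower at 10 nM, where 14% of all spans tested and 51.7% of the lost regions tested were. Those at LRRC31, LOC107984897 and LOC124908058, whose sequences are printed above, were among them. At LRRC31 the values went from 72.52, 71.72 and 51.47 with vehicle to 0 in all 3 at 10 nM (−65.24 points, SE 10.02, limma adjusted p = 0.000189). At LOC107984897 they went from 67.84, 68.18 and 46.82 to 6.98, 0 and 0 (−58.62 points, adjusted p = 0.00207). At LOC124908058 they went from 14.07, 57.56 and 43.26 to 0, 1.76 and 0 (−37.71 points, adjusted p = 0.0243, called in 6 of 16 other settings). The CpG-rich LOC105371399 promoter, weak in VCaP vehicle (14.04, 28.38 and 34.06), was strong in LNCaP and went there from 83.03, 87.66 and 75.15 to 64.93, 72.4 and 67.04 (−13.82 points, adjusted p = 0.0445, called in 6 of 16 other settings). LINC02292, with the androgen hexamer, was not called in LNCaP (−5.24 points, adjusted p = 0.545) and had 23.47, 50.45 and 24.82 in VCaP vehicle.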

How the data were processed

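Each library's narrowPeak list was used as deposited. Per the submitters' processing notes, the tools were MACS2 2.2.7.1, BWA 0.7.17, Trimmomatic 0.39 and deepTools 3.5.1, and the build GRCh38; their settings are not given in the sources used here. The authors' lists give for each peak a deposited score (10 times −log10 p), the deposited fold enrichment at the summit as a ratio, the deposited −log10 p and −log10 q, and a summit offset. The reads per library are unknown; the number of libraries and the summit pileups limit the precision. Pileups were solved from fold enrichment and −log10 p under a Poisson model and lay within 0.05 of a whole number for 99.99 to 100% of entries.

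The members and gene lists were chosen with earlier results of these data known. A region's value is the best overlapping entry's percentile rank, by −log10 p, in a list shortened to 104726 (VCaP) or 134750 (LNCaP) entries; a region listed only below that end has the value 0, while counts of listed regions use whole lists. Spans of the base list with an entry in at least 3 libraries of a fit were tested with limma 3.58.1 in R 4.3.3 (trend, robust, two-sided, Benjamini-Hochberg, called at an adjusted p under 0.05), over the 9 low-dose VCaP or the 15 LNCaP libraries; the code was tested on simulated data. Same-numbered VCaP libraries deviated together from their group means (r of 0.146 to 0.298 over 9 pairs), so the numbers pair them. The main VCaP fit left this pairing out. An alternative fit took the replicate number as a block and also called 0 lost regions.

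Regions carry the name of the nearest protein-coding gene, up to 100 kb from its body (RefSeq, GRCh38.p14), which is not shown to be regulated from them; a region is in a gene where it overlaps the body, and exons and introns were not told apart. Among regions with such a gene, those named were the 12 strongest in vehicle, the 8 largest falls and 4 largest rises called in LNCaP with groups that did not overlap, up to 3 genes per list, the genes with most regions, the strongest listed in all or none of the low-dose libraries, and, with or without such a gene, regions at promoters; 1 region the rule names is not reported here. Alternatives changed the list length, ranking, peak threshold, overlap, filter, scale, groups fitted, replicate block, libraries and span table. No genome sequence was used, so motifs outside promoters were not analysed here.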

Additional observations from a re-analysis of the deposited data

How the results depend on the processing

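All counts of lost regions called in VCaP at 0.06 against 0.01 nM stayed at 0 under every alternative run, without any 1 library and with the replicate block. This steady 0 tells little. In the simulated data for this comparison, 0% of shifts of 30 points and 17% of shifts of 60 points were recovered. The shifted spans were of middle rank, from spans listed in all libraries or all but 1. The lost regions had mean percentiles of 23.71, 14.02 and 10.71 at 0.01, 0.03 and 0.06 nM, so recovery at regions like them was not measured. Percentages in brackets below are the shares of all spans tested that were called in the same direction. In LNCaP, 10 nM against vehicle, 284 to 417 were called lower (9.62 to 21.2%) under all alternatives but those named next. With all entries as deposited 256 were called lower (4.84%). Among entries with −log10 q of at least 5 they were 134 (2.04%), and with normal scores 22 (0.157%). When 1 library was left out they were 299 to 461 (10.8 to 16.2%). The higher count of 6 became 11 with all entries (13.5%), 29 with −log10 q of at least 5 (28.6%) and 3 with normal scores (2.91%). Without 1 library it was 3 to 6 (9.35 to 11.4%). For 0.1 nM against vehicle, 126 lower became 58 with all entries (0.541%) and 17 with −log10 q of at least 5 (0.146%). They became 0 with normal scores (0.0016%) and 75 with only the 2 groups compared (1.47%). Without 1 library they were 73 to 188 (1.3 to 2.88%). The 3 higher became 7 with −log10 q of at least 5 (11.6%) and 1 with normal scores (0.831%), and 2 to 5 without 1 library (5.46 to 6.84%). For 10 nM against 0.1 nM, 107 lower became 66 with all entries (0.784%) and 21 with −log10 q of at least 5 (0.3%). They became 0 with normal scores (0%) and 41 with 2 groups (0.926%). Without 1 library they were 64 to 121 (1.71 to 4.13%). With the replicate number as a block, LNCaP counts of lower regions were 417, 167 and 137 in these 3 comparisons (18.9, 3.6 and 5.14%). Same-numbered LNCaP libraries correlated with r of 0.11 or more in replicates 3 and 5. For 10 nM replicate 4 with the other replicates 4, r was below 0 (over all, −0.161 to 0.526). The numbers were therefore not taken to pair the LNCaP libraries. The lost regions themselves numbered 100 from the top 50000 vehicle entries, 2113 where only the top 100000 at 10 nM counted, 1347 with 100000 unique spans (chosen after seeing the data), and 1359 to 3388 without 1 library. In LNCaP a mean of 622.0 were listed with vehicle and 513.67 at 10 nM, and 602.33 and 329.67 in shortened lists. A gene body lay within 100 kb of 73.03%, and a gene end within 10 kb of 16.39%. The causes were not tested. A pileup under 6 or 7 was rarely listed at 10 nM, and the part of depth in the result was not tested.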
